A study of Mus musculus with 12 samples.

Results

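The mitochondrial genome of the mouse carries 37 genes, and all 37 were found among the 55421 gene identifiers of the count table. They were chosen by name, as every identifier whose GENCODE vM21 symbol starts with mt-. They comprise 13 protein-coding genes, 2 ribosomal RNA (rRNA) genes and 22 transfer RNA (tRNA) genes, all on chrM of the GRCm38 build. No measured value entered the choice. Messenger RNA libraries came from 4 groups of 3, from female cells of the C57BL6J strain. The first 2 groups were PMJ2R, a peritoneal macrophage line carrying the v-raf and v-myc oncogenes, after 6 h with 5 nM rebastinib and as untreated control. The other 2 were ID8, a tumour line derived from ovarian surface epithelium and labelled wild type, after the same exposure and as control. Rebastinib is a kinase inhibitor directed at the angiopoietin receptor TIE2. The labels do not say that libraries of a group came from separate cultures, so every p-value measures only the spread between these libraries, which may be technical.

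Mitochondrial DNA is a small circle in many copies per cell. Both strands are copied into long precursors that run through nearly the whole circle, and enzymes cut the tRNAs out of them, which frees the messenger and ribosomal RNAs between the tRNAs. The heavy-strand precursor holds both rRNAs, most tRNAs and every coding gene except mt-Nd6, which lies on the light-strand precursor together with 8 tRNAs. The coding genes make core subunits of respiratory complexes I, III, IV and V, and the rRNAs and tRNAs serve the mitochondrial ribosome that translates them. In macrophages and tumour cells the respiratory chain competes with glycolysis as a source of ATP.

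Sequence matters here because nuclear DNA holds copies of mitochondrial genes, and a read that fits a copy as well as the gene cannot be placed. The stretch chrM:6390-11042, 4653 bases long, was matched in order by 7 annotated copies in chr1:24611535-24616197, on the minus strand. It holds 6 whole coding genes (mt-Co2, mt-Atp8, mt-Atp6, mt-Co3, mt-Nd3 and mt-Nd4l) and 5 tRNA genes, and it begins inside mt-Co1 and ends inside mt-Nd4. The copies matched the genes over 99.7% to 100% of their aligned bases. The sequences below, from the GENCODE vM21 transcripts, show how little separates a gene from its copy. The only mismatch of mt-Nd3 and its copy Gm28438 over 345 aligned bases was T3C, counted from the 5′ end of the gene and capitalised in the first 60 bases (chrM:9459-9518, plus strand, and chr1:24613060-24613119, minus strand). The copy of mt-Co1, Gm29216, begins inside that gene. Capitals mark where the match starts, at base 1063 of mt-Co1, and A1066T is its only mismatch over 483 aligned bases (chrM:6360-6419, plus strand, and chr1:24616159-24616197, minus strand).
mt-Nd3: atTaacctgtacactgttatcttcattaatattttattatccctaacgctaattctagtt
Gm28438: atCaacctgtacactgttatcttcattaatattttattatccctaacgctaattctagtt
mt-Co1: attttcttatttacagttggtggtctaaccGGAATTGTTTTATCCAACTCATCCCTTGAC
Gm29216: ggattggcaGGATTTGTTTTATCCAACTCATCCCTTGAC

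The tRNA genes differ in which precursor they belong to and in how many reads they received. Shown with the anticodon in capitals are the tRNA gene with the most counts, mt-Tp (proline, chrM:15356-15422, light-strand transcript), one whose response differed most between the lines, mt-Tq (glutamine, chrM:3772-3842, light-strand transcript), its heavy-strand neighbour mt-Ti (isoleucine, chrM:3706-3774), and mt-Tk (lysine, chrM:7700-7764), a heavy-strand tRNA with no count. The last of these lies in the copied stretch.
mt-Tp: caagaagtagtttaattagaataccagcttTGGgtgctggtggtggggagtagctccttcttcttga
mt-Tq: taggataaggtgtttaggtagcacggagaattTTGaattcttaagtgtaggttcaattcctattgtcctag
mt-Ti: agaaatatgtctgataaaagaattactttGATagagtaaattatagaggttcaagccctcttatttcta
mt-Tk: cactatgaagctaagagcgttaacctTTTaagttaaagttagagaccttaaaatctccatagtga

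Libraries held 19025504 to 27070556 counts. All 8 macrophage markers listed (Ptprc, Csf1r, Adgre1, Cd68, Itgam, Spi1, Lyz2 and Laptm5) lay above 1 CPM (counts scaled to equal library totals) in both PMJ2R groups, and 2 of 8, Csf1r and Cd68, did in both ID8 groups. All 8 ovarian and mesothelial markers lay above 1 CPM in both ID8 groups and 0 of 8 did in PMJ2R. Most genes were called in these comparisons: 83.7% of 14010 tested genes passed the test for rebastinib against control in PMJ2R and 80.4% of 14829 did in ID8 (edgeR quasi-likelihood test, Benjamini-Hochberg adjusted p under 0.05). Genes that overlap nuclear ribosomal RNA also moved with treatment. They took 5.82% ± 0.184 of counts in rebastinib PMJ2R against 0.128% ± 0.0400 in control PMJ2R, and 1.23% ± 0.319 in rebastinib ID8 against 0.211% ± 0.129 in control ID8 (SD, n = 3 each), and their part in the results below was tested only as another scaling. Of the control libraries, PMJ2R control replicate 3 stood apart from the other 2, with 3.99% of its counts in the coding genes against 3.23% and 3.24%.

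Mitochondrially encoded RNA took a larger share of the libraries after rebastinib in both lines. Without further scaling, the 13 coding genes held 5.10%, 5.10% and 5.41% of counts in rebastinib PMJ2R against 3.23%, 3.24% and 3.99% in control PMJ2R. The same genes held 4.91%, 4.54% and 4.79% in rebastinib ID8 against 2.80%, 2.89% and 3.02% in control ID8. Neither pair of groups overlapped, and the ratio of group means was 1.49 in PMJ2R and 1.63 in ID8. The total of the class has no p-value, because it is a sum over chosen genes. In such shares more mitochondrial RNA and less nuclear messenger RNA cannot be told apart, nor can fewer cells of a kind within a culture and less RNA per cell.

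The rRNA genes showed the same picture by library totals, and the tRNA genes did not do so in PMJ2R. Both rRNA genes together held 0.401%, 0.430% and 0.451% of counts in rebastinib PMJ2R against 0.256%, 0.274% and 0.254% in control PMJ2R, and 0.211%, 0.192% and 0.175% in rebastinib ID8 against 0.110%, 0.105% and 0.115% in control ID8. The groups of both lines stood apart. The 22 tRNA genes held 0.00979%, 0.0110% and 0.0119% in rebastinib PMJ2R against 0.00999%, 0.0120% and 0.0123% in control PMJ2R, so those groups overlapped. In ID8 the tRNA shares were 0.00795%, 0.00792% and 0.00728% with rebastinib against 0.00434%, 0.00443% and 0.00503% in control, without overlap.

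Scaling moves these values. TMM, the scaling of the tests, sets the bulk of the genes level between libraries and gave factors of 0.823 to 0.827 in rebastinib PMJ2R against 1.14 to 1.19 in control PMJ2R, and 0.851 to 0.916 in rebastinib ID8 against 1.17 to 1.20 in control ID8. By library totals alone the median log2 fold change of all tested genes was -0.60 in PMJ2R and -0.50 in ID8, and with TMM it was -0.05 and -0.07. On the TMM scale the coding genes summed to 63156 ± 2061 CPM in rebastinib PMJ2R against 30051 ± 4378 CPM in control PMJ2R, and to 53969 ± 3237 CPM in rebastinib ID8 against 24538 ± 1175 CPM in control ID8 (SD, n = 3 each). The tRNA sum, level by library totals in PMJ2R, was 133 ± 12.8 CPM in rebastinib PMJ2R against 98.5 ± 12.5 CPM in control PMJ2R on that scale, and the groups no longer overlapped.

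**Figure D1:**
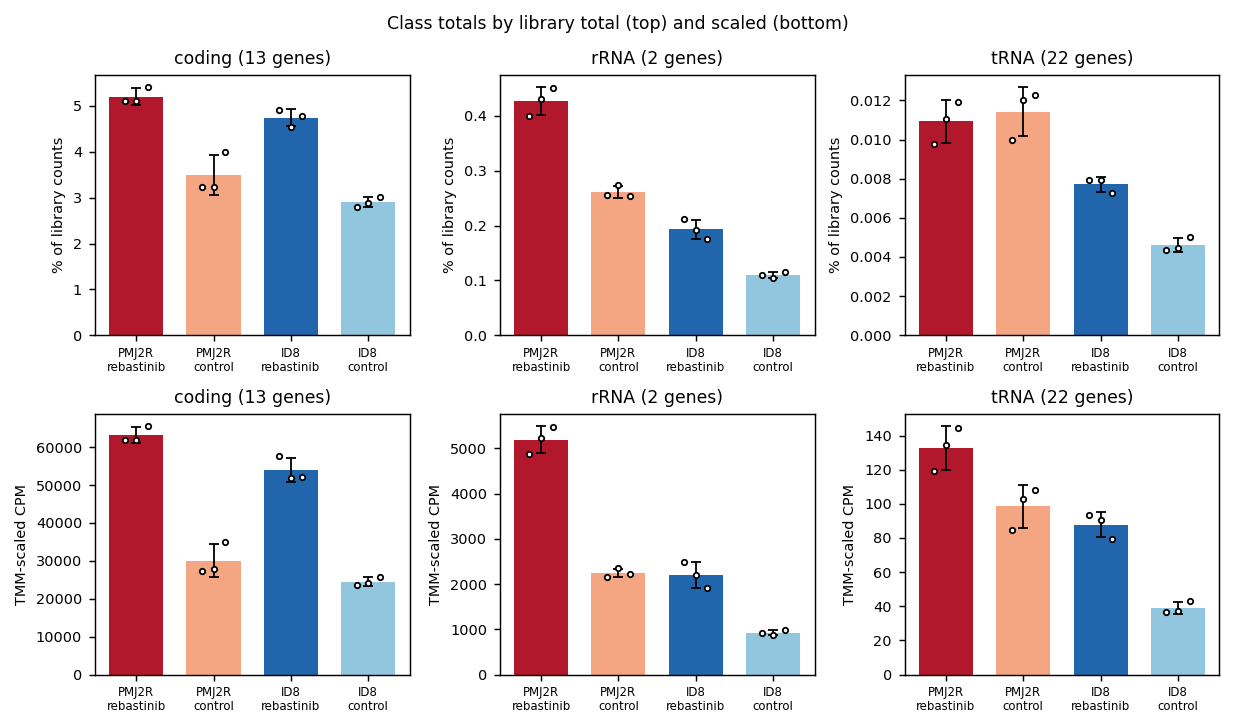
Summed counts of the coding, rRNA and tRNA genes in each library, as a percentage of library counts (top row) and as TMM-scaled CPM (bottom row); bars are group means, error bars the SD and circles the 3 libraries. Coding and rRNA sums are higher with rebastinib on both scales, while the tRNA sum of PMJ2R is 0.0109% against 0.0114% by library totals and 133 against 98.5 CPM with TMM.

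Levels within the genome spanned several orders of magnitude. In CPM of library totals per kb of gene, mt-Nd1 of complex I, mt-Co1 of complex IV and mt-Cytb, the only mitochondrially encoded subunit of complex III, were the highest. In control PMJ2R they reached 7547 ± 1000, 6849 ± 520 and 5774 ± 985, and in control ID8 4999 ± 201, 7221 ± 214 and 4488 ± 195 (CPM per kb, SD, n = 3). In PMJ2R the spreads of these 3 overlapped, and in ID8 mt-Co1 stood above mt-Nd1, which stood above mt-Cytb. Of the next genes, mt-Nd2 of complex I had 3481 ± 433 in control PMJ2R and 2159 ± 80.5 in control ID8, and mt-Nd6, the light-strand gene of complex I, had 2581 ± 557 and 2117 ± 225 in the same groups. The ND5 subunit gene mt-Nd5 had 2081 ± 327 in control PMJ2R and 1699 ± 109 in control ID8, and mt-Nd4 had 1228 ± 116 and 1107 ± 67.5. These values use the full gene length, although the copied stretch reaches into mt-Co1 and mt-Nd4, and its part in their order was not tested.

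The 6 coding genes of the copied stretch lay far below these levels. In control PMJ2R, mt-Atp8 and mt-Atp6, both of the ATP synthase (complex V), had 6.14 ± 1.74 and 5.24 ± 0.183 CPM per kb. There mt-Co2 and mt-Co3, core subunits of cytochrome c oxidase (complex IV), had 4.07 ± 0.489 and 2.34 ± 0.599. The complex I genes mt-Nd4l and mt-Nd3 had 1.53 ± 0.686 and 1.19 ± 0.466. Together these 6 genes held 0.0387% ± 0.00457 of the mitochondrial coding counts in rebastinib PMJ2R against 0.0299% ± 0.00420 in control PMJ2R, and 0.0446% ± 0.00418 in rebastinib ID8 against 0.0298% ± 0.00131 in control ID8. Although all of them derive from the same heavy-strand precursor as mt-Co1 on one side and mt-Nd4 on the other, both neighbours lay above 1000 CPM per kb in control cells.

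**Figure D2:**
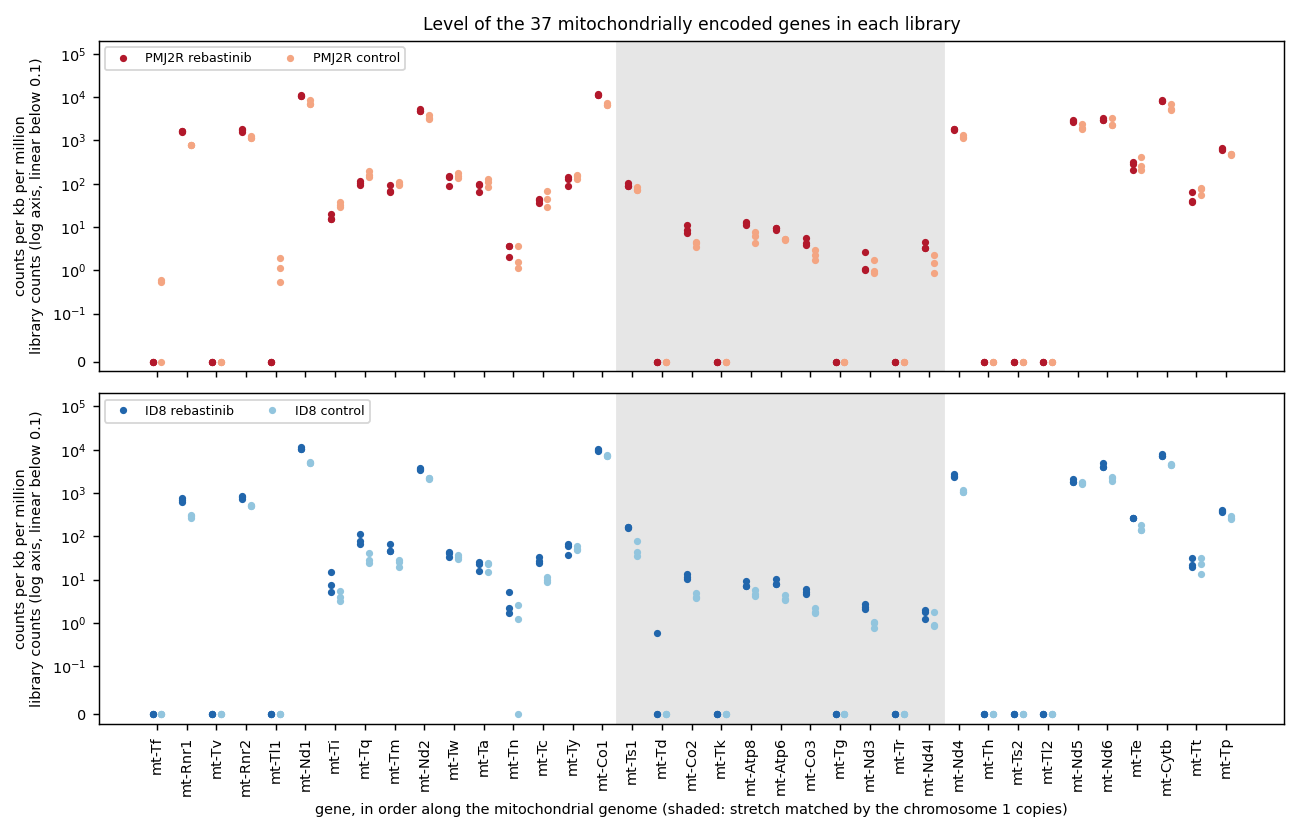
Library-total CPM per kb of gene (log axis, linear below 0.1) of the 37 genes, in order along the mitochondrial genome, with 1 point per library; PMJ2R above, ID8 below, rebastinib left of control at each gene. The shaded stretch is the one matched by the chromosome 1 copies, where mt-Co2 in control PMJ2R has 4.07 against 6849 for mt-Co1 just outside it.

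The low levels went with shared sequence. Of all 50-base windows of mt-Co2, 100% were found exactly in another annotated transcript, and the shares were 99.9% for mt-Co3, 99.5% for mt-Atp6, 98.8% for mt-Nd4l and 98.0% for mt-Nd3. Only part of mt-Nd4 (62.2%) and mt-Co1 (51.1%) was shared, and 8.19% of mt-Nd2, 7.61% of mt-Nd5 and 1.04% of mt-Rnr2. The genes mt-Nd1, mt-Nd6, mt-Cytb and mt-Rnr1 shared 0%. The exception was mt-Atp8, which shared 0% with annotated transcripts. It lies between mt-Co2 and mt-Atp6 in the copied stretch, and the matching bases of chromosome 1 carry no annotated transcript and could not be read here. How reads with several matches were counted is not given in the sources used here, and its part in the levels was not tested.

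**Figure D3:**
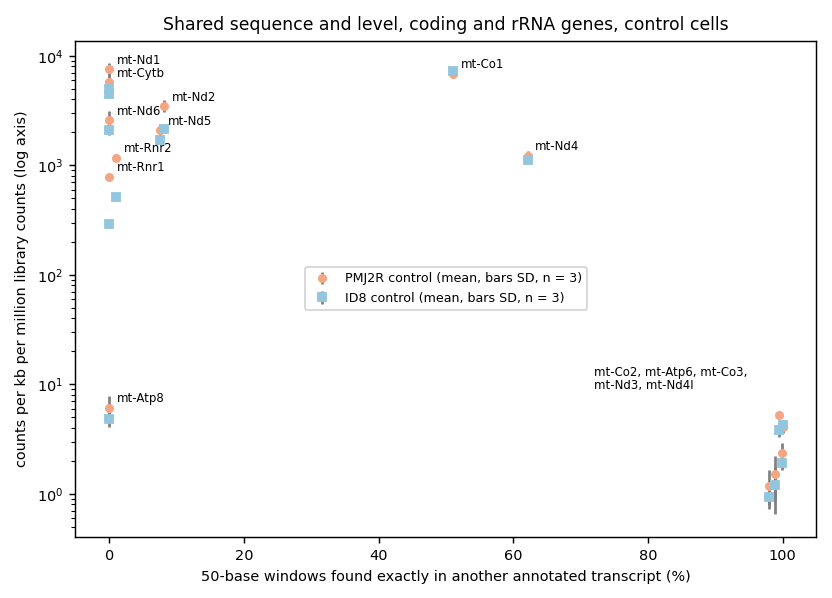
Library-total CPM per kb of gene (log axis) of the coding and rRNA genes in control cells against the percentage of their 50-base windows found in another annotated transcript; points are means and bars the SD of 3 libraries, PMJ2R circles and ID8 squares. The 5 genes with at least 98.0% shared windows and mt-Atp8 lie at the bottom, with 0.932 to 6.14 CPM per kb.

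Counts on the copies were not proportional to those on the genes. Gm28438, with 1 mismatch to mt-Nd3, had 3322 counts over the 12 libraries against 139 for mt-Nd3 itself. Gm28437, identical to mt-Co3 over its 783 aligned bases, had 1508 counts against 714. By library, Gm28438 had 220, 297 and 276 counts in rebastinib PMJ2R against 455, 706 and 441 in control PMJ2R, and 143, 120 and 165 in rebastinib ID8 against 175, 133 and 191 in control ID8. The PMJ2R groups stood apart, with the rebastinib counts lower, and the ID8 groups overlapped, and these counts are not scaled. The other copies in the stretch had 99 to 685 counts each and are named only for their position. Over all 20 copies found, the sum was 8502 counts, while mt-Co1 alone had 3604557.

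Rebastinib against control, gene by gene, moved the coding class one way. In PMJ2R 12 of the 13 coding genes passed the expression filter and all 12 rose, beside 40.1% of all genes called higher and 43.6% called lower. In ID8 all 13 passed the filter and 12 rose, beside 38.4% of all genes called higher and 42.0% lower. The calls of mt-Nd4l in PMJ2R and of mt-Nd3 in ID8 needed the rebastinib libraries, where the gene was high, to pass the filter. Both stay in these counts and in the medians, but no support is drawn from them. The same holds for mt-Co3 in PMJ2R, where counts on its nuclear copy went the other way. The median log2 fold change was 1.22 over the 12 genes in PMJ2R and 1.48 over the 13 in ID8. By library totals alone 11 coding genes were called higher in each line and none lower, beside 22.1% of all genes higher in PMJ2R and 23.9% in ID8. The gene that lost its call was mt-Nd6 in PMJ2R (0.25, adjusted p = 0.185) and mt-Nd5 in ID8 (0.16, adjusted p = 0.0874).

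The complex I genes differed among themselves. In CPM of library totals, mt-Nd1, a core membrane subunit, had 10091, 10077 and 10708 in rebastinib PMJ2R against 6652, 6689 and 8327 in control PMJ2R, and 11204, 10133 and 10206 in rebastinib ID8 against 4670, 4675 and 5006 in control ID8. Neither line's groups overlapped. The log2 fold change was 1.07 ± 0.08 in PMJ2R (SE, adjusted p = 3.31e-09) and 1.57 ± 0.09 in ID8 (adjusted p = 1.76e-09). For mt-Nd4 the CPM were 2476, 2452 and 2588 in rebastinib PMJ2R against 1584, 1617 and 1877 in control PMJ2R, and 3802, 3378 and 3275 in rebastinib ID8 against 1462, 1482 and 1632 in control ID8. Its log2 fold change was 1.12 ± 0.06 in PMJ2R (adjusted p = 5.13e-12) and 1.63 ± 0.10 in ID8 (adjusted p = 1.86e-09).

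The distal complex I subunit gene mt-Nd5, the last coding gene of the heavy-strand precursor before mt-Cytb, changed least in ID8. It had 4836, 5063 and 5386 CPM in rebastinib PMJ2R against 3378, 3529 and 4479 CPM in control PMJ2R, and 3313, 3220 and 3857 CPM in rebastinib ID8 against 2897, 3106 and 3294 CPM in control ID8. The ID8 groups overlapped by library totals. On the TMM scale its log2 fold change was 0.98 ± 0.10 in PMJ2R (adjusted p = 5.20e-06) and 0.59 ± 0.09 in ID8 (adjusted p = 1.81e-05). The other strand's gene, mt-Nd6, had 1542, 1542 and 1708 CPM in rebastinib PMJ2R against 1187, 1159 and 1673 CPM in control PMJ2R, where control replicate 3 lay within the rebastinib range. In ID8 it had 2534, 2118 and 2119 CPM with rebastinib against 969, 1132 and 1196 CPM in control, far apart. Its log2 fold change was 0.81 ± 0.16 in PMJ2R (adjusted p = 0.00413) and 1.48 ± 0.11 in ID8 (adjusted p = 1.50e-08), and the PMJ2R value was -0.06 with smooth trends against transcript length and GC content taken out of each library. Its PMJ2R call was also absent with no expression filter (0.60, adjusted p = 0.0635).

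Of the remaining complex I genes, mt-Nd2 rose by 1.07 ± 0.07 (log2) in PMJ2R and 1.16 ± 0.08 in ID8. The other 2 are short and lie in the copied stretch. The gene mt-Nd4l rose in PMJ2R (1.79 ± 0.34, adjusted p = 0.000107) and stood at 0.89 ± 0.42 in ID8, where it did not pass (adjusted p = 0.0638) unless control replicate 2 was left out (1.30, adjusted p = 0.0289). The gene mt-Nd3 rose in ID8 (1.76 ± 0.35, adjusted p = 0.000312), with 20, 14 and 20 counts against 6, 8 and 8 in control, and had too few counts to be tested in PMJ2R. Both rest on 6 to 25 counts per library. For the calls above, each needed its rebastinib libraries, where it was high, to pass the filter. These rises are therefore not read as results.

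The genes of cytochrome c oxidase and cytochrome b were called higher in both lines as well. The catalytic subunit gene mt-Co1 had 17524, 17619 and 18448 CPM in rebastinib PMJ2R against 10207, 10034 and 11505 CPM in control PMJ2R, and 15171, 14787 and 16179 CPM in rebastinib ID8 against 10779, 11290 and 11399 CPM in control ID8. Every rebastinib library lay above every control library. Its log2 fold change was 1.31 ± 0.06 in PMJ2R (adjusted p = 4.59e-13) and 0.90 ± 0.08 in ID8 (adjusted p = 1.90e-07). The copper-site subunit gene mt-Co2 rose by 1.70 ± 0.17 in PMJ2R and 1.91 ± 0.17 in ID8, and mt-Co3 stood at 1.51 ± 0.21 and 1.91 ± 0.21. Both lie in the copied stretch, and mt-Co3 had 31 to 102 counts per library. Its identical copy Gm28437 had 116, 137 and 114 counts in rebastinib PMJ2R against 170, 226 and 189 in control PMJ2R, the opposite direction. In ID8 the copy had 123, 97 and 102 counts with rebastinib against 85, 65 and 84 in control. These counts are not scaled. The PMJ2R rise of mt-Co3 is therefore not read as a result. The complex III gene mt-Cytb had 9439, 9185 and 9872 CPM in rebastinib PMJ2R against 6053, 5862 and 7902 CPM in control PMJ2R, and 9169, 8229 and 8399 CPM in rebastinib ID8 against 4959, 5059 and 5385 CPM in control ID8, again without overlap. It rose by 1.08 ± 0.10 in PMJ2R (adjusted p = 3.71e-06) and by 1.18 ± 0.09 in ID8 (adjusted p = 2.55e-08). For the ATP synthase, mt-Atp6 rose by 1.38 ± 0.13 in PMJ2R and 1.65 ± 0.18 in ID8, and mt-Atp8 by 1.57 ± 0.23 and 1.13 ± 0.25, with the mt-Atp8 call lost in both lines when length and GC trends were removed (adjusted p = 0.0636 in PMJ2R and 0.246 in ID8).

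Both rRNA genes rose in both lines. The small-subunit rRNA gene mt-Rnr1 had 1532, 1576 and 1608 CPM in rebastinib PMJ2R against 765, 757 and 735 CPM in control PMJ2R, and 750, 651 and 581 CPM in rebastinib ID8 against 282, 256 and 302 CPM in control ID8. No rebastinib value came near a control value. The log2 fold change was 1.62 ± 0.04 in PMJ2R (adjusted p = 8.69e-16) and 1.68 ± 0.11 in ID8 (adjusted p = 4.68e-09). The large-subunit gene mt-Rnr2, its downstream neighbour on the same precursor, had 2473, 2728 and 2904 CPM in rebastinib PMJ2R against 1795, 1983 and 1800 CPM in control PMJ2R, and 1361, 1269 and 1173 CPM in rebastinib ID8 against 815, 790 and 846 CPM in control ID8. It rose by 1.10 ± 0.06 in PMJ2R (adjusted p = 5.22e-12) and 1.07 ± 0.09 in ID8 (adjusted p = 4.77e-08). Per kb, mt-Rnr1 over mt-Rnr2 was 0.967 ± 0.0552 in rebastinib PMJ2R against 0.672 ± 0.0367 in control PMJ2R, and 0.861 ± 0.0477 in rebastinib ID8 against 0.567 ± 0.0286 in control ID8, a ratio that no library scaling alters. Both rRNA genes were called higher in both lines with RLE factors, by library totals and with scaling without mitochondrial and rRNA-overlapping genes.

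**Figure D4:**
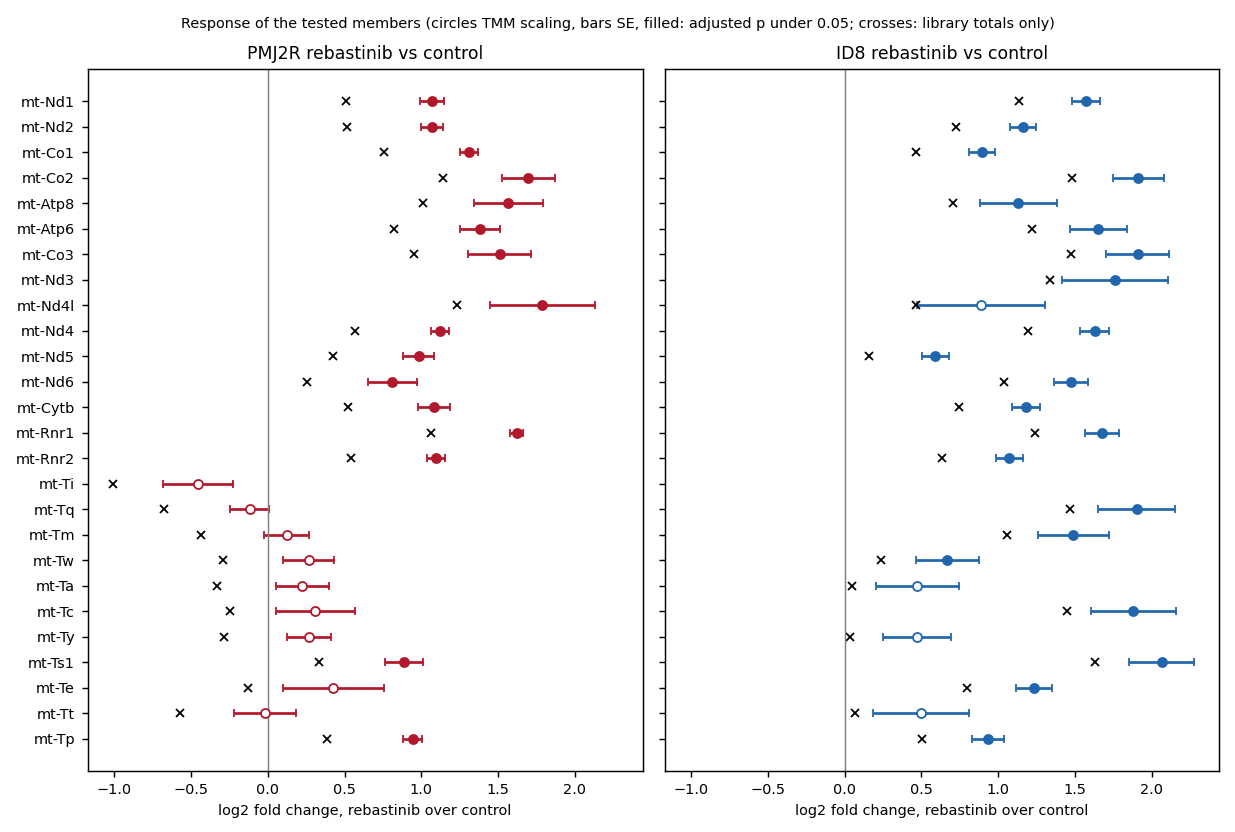
Log2 fold change of rebastinib over control for each tested member, PMJ2R left and ID8 right; circles are TMM-scaled estimates with their SE as bars, filled where the adjusted p is under 0.05, and crosses the estimates by library totals alone. Coding and rRNA genes lie to the right of 0 in both panels, while in PMJ2R most tRNA circles lie near 0 and most of their crosses to the left of it.

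The tRNA genes differed by strand and by position in how many counts they received. All 8 light-strand tRNAs had counts, with 44 to 7752 over the 12 libraries. Of the 14 heavy-strand tRNAs, 4 had more than 100 counts (mt-Tw, mt-Tm, mt-Tt and mt-Ti), 3 had 1 to 7 counts and 7 had none in any library. Outside the copied stretch these 4 are also the heavy-strand tRNAs that lie next to a light-strand tRNA (mt-Ta, mt-Tq or mt-Tp). Inside it, the heavy-strand tRNA next to light-strand mt-Ts1 had 1 count. The parts of strand and of neighbouring genes in these counts cannot be told apart. The 5 tRNA genes of the copied stretch are light-strand mt-Ts1, with 1731 counts, and heavy-strand genes with 0 or 1 count each, mt-Tk among them. Genes with no count lie both inside and outside the stretch. For those inside, strand and the nuclear copy cannot be told apart. A count of 0 allows up to 3 counts, or 0.111 to 0.158 CPM depending on the library. Mature tRNAs are short and lack a long poly(A) tail, so a messenger RNA library can hold tRNA sequence from precursors, and the file does not separate these forms. The strand setting of the counting is not given in the sources used here, so reads of a light-strand tRNA and of the heavy-strand precursor across the same bases cannot be told apart. The same limit holds for mt-Nd6.

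In PMJ2R 2 of the 11 tested tRNA genes rose and none fell (9 did not pass), beside 40.1% of all genes higher and 43.6% lower. In ID8 7 of 10 rose and none fell (3 did not pass), beside 38.4% higher and 42.0% lower. The gene mt-Tp had 49.2, 50.3 and 52.9 TMM-scaled CPM in rebastinib PMJ2R against 26.5, 28.1 and 28.1 in control PMJ2R, and 28.2, 31.4 and 27.7 in rebastinib ID8 against 13.9, 14.6 and 17.3 in control ID8. The groups were well separated in both lines, with log2 fold changes of 0.94 ± 0.06 (adjusted p = 8.54e-11) and 0.93 ± 0.10 (adjusted p = 1.05e-06). The serine tRNA mt-Ts1 lies in the copied stretch, just past mt-Co1 on the opposite strand. It rose by 0.89 ± 0.13 in PMJ2R (adjusted p = 3.77e-06) and 2.07 ± 0.21 in ID8 (adjusted p = 4.61e-07). These 2 were the tRNA calls of PMJ2R, which numbered 5 without rebastinib replicate 1 and 4 without control replicate 3. Neither was called in PMJ2R with length and GC trends removed (-0.03 for mt-Tp and -0.27 for mt-Ts1), and in ID8 mt-Ts1 then remained higher (0.92) while mt-Tp turned lower (-0.24, adjusted p = 0.0418).

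The glutamine tRNA mt-Tq behaved differently in the lines. It had 8.83, 8.11 and 9.80 TMM-scaled CPM in rebastinib PMJ2R against 8.45, 11.7 and 10.025 in control PMJ2R, which overlap, and 9.70, 6.49 and 5.03 in rebastinib ID8 against 1.71, 1.44 and 2.48 in control ID8, which do not. The log2 fold change was -0.12 ± 0.13 in PMJ2R (adjusted p = 0.389) and 1.90 ± 0.25 in ID8 (adjusted p = 7.28e-06). In ID8 the methionine tRNA mt-Tm rose by 1.49 ± 0.23, the cysteine tRNA mt-Tc by 1.88 ± 0.28, the glutamate tRNA mt-Te by 1.23 ± 0.12 and the tryptophan tRNA mt-Tw by 0.67 ± 0.20. The call of mt-Tw was absent by library totals (0.23, adjusted p = 0.288), where its groups overlapped, and its direction turned with length and GC trends removed (-0.51, adjusted p = 0.0232), which also ended the calls of mt-Tm (0.32) and mt-Te (0.13). In PMJ2R mt-Tm, mt-Tc, mt-Te and mt-Tw stood at 0.12, 0.31, 0.43 and 0.26 and did not pass (adjusted p = 0.441, 0.275, 0.277 and 0.150). PMJ2R control replicate 3 had 25.7 TMM-scaled CPM of mt-Te against 12.1 and 15.1 in the other 2 controls, and without it mt-Te rose in PMJ2R as well (0.77, adjusted p = 2.07e-05). The alanine, tyrosine and threonine tRNAs mt-Ta, mt-Ty and mt-Tt did not pass in either line. The isoleucine tRNA mt-Ti was tested in PMJ2R alone and stood at -0.46 ± 0.23 (adjusted p = 0.0715).

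The sign of the tRNA response in PMJ2R depended on the scaling. By library totals 4 of 11 tRNAs were called lower there (mt-Ti at -1.01, mt-Tq at -0.68, mt-Tt at -0.57 and mt-Tm at -0.43) and 2 higher, beside 61.9% of all genes lower and 22.1% higher. With length and GC trends removed, 8 of 11 were called lower in PMJ2R and 0 higher, beside 37.4% of all genes lower and 45.7% higher. In ID8 3 of 10 were then called lower and 3 higher, beside 34.6% of all genes lower and 47.5% higher.

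Relative to the mitochondrial coding counts of the same library, the composition shifted in ways that do not depend on the scaling of nuclear genes. In this fit the summed counts of the 13 coding genes took the place of the library size, and 85.0% of all genes were called in PMJ2R (6.59% higher and 78.4% lower) and 87.2% in ID8 (6.89% higher and 80.3% lower). A share of a sum falls when another member's share grows, so the members are not independent here. The gene mt-Nd1 held 19.8%, 19.8% and 19.8% of coding counts in rebastinib PMJ2R against 20.6%, 20.7% and 20.9% in control PMJ2R, and 22.8%, 22.3% and 21.3% in rebastinib ID8 against 16.7%, 16.2% and 16.6% in control ID8. Neither line's groups overlapped, but the lower share in PMJ2R did not pass the test (-0.07, adjusted p = 0.629). That test takes its spread partly from all genes tested. In PMJ2R its SE was 0.127 for mt-Nd1, 0.1265 for mt-Nd2 and 0.1256 for mt-Nd4. The test therefore does not measure the spread of the mt-Nd1 share itself, whose SD was 0.0135 in rebastinib PMJ2R and 0.153 in control PMJ2R. In ID8 the gene rose relative to the coding total (0.43 ± 0.07, adjusted p = 2.14e-05).

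For mt-Co1 the pattern was the other way. It held 34.4%, 34.6% and 34.1% in rebastinib PMJ2R against 31.6%, 31.0% and 28.8% in control PMJ2R, and 30.9%, 32.6% and 33.8% in rebastinib ID8 against 38.5%, 39.1% and 37.7% in control ID8. Groups did not overlap in either line, although in PMJ2R the difference did not pass the test (0.17, adjusted p = 0.195) and in ID8 it did (-0.24 ± 0.07, adjusted p = 0.00308). The share of mt-Nd5 was 9.49%, 9.93% and 9.95% in rebastinib PMJ2R against 10.5%, 10.9% and 11.2% in control PMJ2R, and 6.75%, 7.10% and 8.06% in rebastinib ID8 against 10.3%, 10.8% and 10.9% in control ID8. Relative to the coding total mt-Nd5 fell in ID8 (-0.55 ± 0.08, adjusted p = 8.63e-06) and did not pass in PMJ2R (-0.15, adjusted p = 0.260). The PMJ2R tests of mt-Co1 and mt-Nd5 had SEs of 0.127 and 0.1265, so the limit given for mt-Nd1 holds for them too.

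In all, 6 coding genes rose relative to the coding total in ID8 (mt-Co2, mt-Co3, mt-Atp6, mt-Nd4, mt-Nd1 and mt-Nd6) and 2 fell, mt-Nd5 and mt-Co1. Of the risers, mt-Co2, mt-Co3 and mt-Atp6 lie in the copied stretch. They had 56 to 201, 31 to 102 and 52 to 153 counts per library, while mt-Nd6, the lowest of the others, had at least 21505. The part of reads shared with nuclear copies in these calls was not tested. In PMJ2R mt-Co2 rose (0.56 ± 0.20, adjusted p = 0.00702) and mt-Nd6 fell (-0.31 ± 0.13, adjusted p = 0.0150). Of these PMJ2R calls, that of mt-Co2 was absent without rebastinib replicate 3 (0.39, adjusted p = 0.117) and that of mt-Nd6 without rebastinib replicate 1 or 2 (-0.30 in both cases, adjusted p = 0.0765 and 0.0800). The ID8 call of mt-Atp6 was absent without control replicate 1 or 2 or rebastinib replicate 1 (0.39 to 0.48, adjusted p = 0.0507 to 0.0550). In ID8 mt-Nd6 over mt-Nd5 per kb was 2.69, 2.31 and 1.93 with rebastinib against 1.18, 1.28 and 1.28 in control. The log2 fold changes behind it were 1.48 for mt-Nd6 and 0.59 for mt-Nd5, while heavy-strand mt-Nd1 and mt-Nd4 stood at 1.57 and 1.63. In PMJ2R that ratio was 1.12, 1.07 and 1.11 with rebastinib against 1.23, 1.15 and 1.31 in control, a little lower and without overlap. The strand setting of the counting is not given, so mt-Nd6 reads and heavy-strand precursor reads across the same bases cannot be told apart. No contrast of strands is read from these values. By complex, complex I genes held 47.4% ± 0.285 of coding counts in rebastinib PMJ2R against 50.6% ± 0.868 in control PMJ2R, and 49.4% ± 0.873 in rebastinib ID8 against 43.9% ± 0.522 in control ID8. Complex IV genes, nearly all of it mt-Co1, went the other way in both lines. They held 34.4% ± 0.242 in rebastinib PMJ2R against 30.5% ± 1.44 in control PMJ2R, and 32.5% ± 1.44 in rebastinib ID8 against 38.4% ± 0.677 in control ID8.

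Relative to coding counts, mt-Rnr1 rose in PMJ2R (0.47 ± 0.13, adjusted p = 0.000243) and in ID8 (0.53 ± 0.10, adjusted p = 7.33e-05), while mt-Rnr2 stood at -0.06 and -0.07 and did not pass (adjusted p = 0.675 and 0.395), although without PMJ2R control replicate 3 mt-Rnr2 fell there (-0.17, adjusted p = 0.00506). Relative to coding counts 9 of 11 tRNA genes fell in PMJ2R, a share near the 78.4% of all genes called lower in that fit. They summed to 19.2, 21.7 and 22.1 counts per 10000 coding counts in rebastinib PMJ2R against 30.9, 37.1 and 30.8 in control PMJ2R, with no overlap. In ID8 the values were 16.2, 17.5 and 15.2 with rebastinib against 15.5, 15.3 and 16.6 in control, which overlap, and mt-Ts1, mt-Tq and mt-Tc rose while mt-Ta and mt-Ty fell. Among the PMJ2R changes were mt-Ti (-1.60 ± 0.27, adjusted p = 4.68e-09), mt-Tq (-1.26 ± 0.17, adjusted p = 3.11e-13) and mt-Tt (-1.16 ± 0.21, adjusted p = 2.88e-08). The 2 that did not pass, mt-Tp and mt-Ts1, were those that had risen on the TMM scale.

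**Figure D5:**
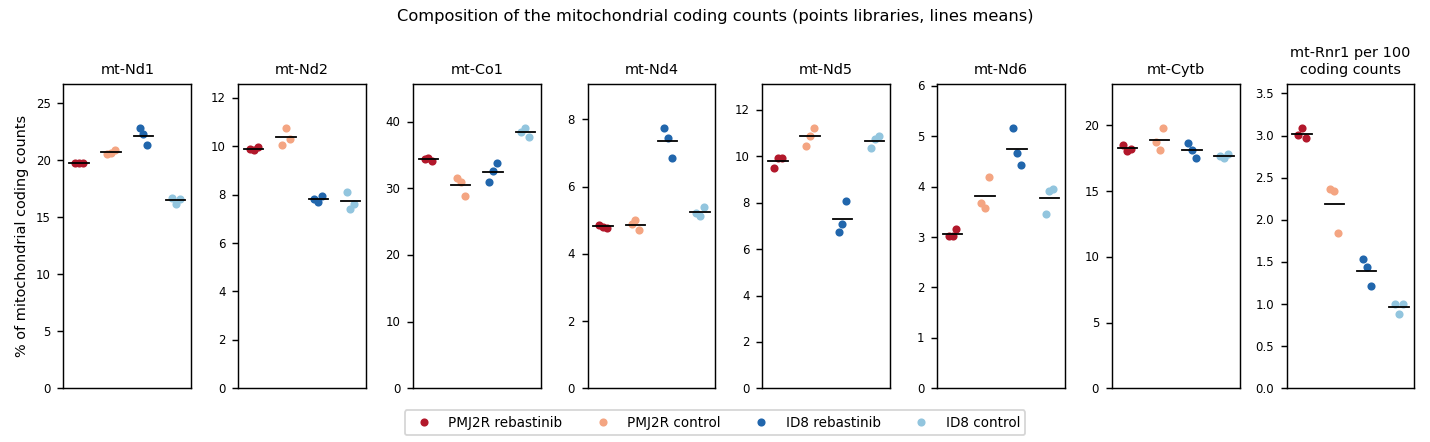
Share of the mitochondrial coding counts held by each of the 7 coding genes outside the copied stretch, and mt-Rnr1 per 100 coding counts, with 1 point per library and lines at the group means, each panel starting at 0. In ID8 mt-Nd1 is higher with rebastinib (22.2% against 16.5%) and mt-Nd5 lower (7.30% against 10.7%); in PMJ2R the same shares are 19.8% against 20.7% and 9.79% against 10.9%.

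The size of the response was then compared between the lines with an interaction contrast over all 12 libraries, PMJ2R minus ID8, in which 52.4% of 16566 genes were called, 21.8% higher and 30.6% lower. Of the 13 coding genes, 3 rose less in PMJ2R than in ID8, namely mt-Nd4 (-0.56 ± 0.12, adjusted p = 0.000331), mt-Nd1 (-0.56 ± 0.12, adjusted p = 0.000553) and mt-Nd6 (-0.72 ± 0.19, adjusted p = 0.00325). The response of mt-Co1 was larger in PMJ2R (0.36 ± 0.10, adjusted p = 0.00531), and so was that of mt-Nd5 (0.33 ± 0.13, adjusted p = 0.0375), a call that was absent by library totals (0.26, adjusted p = 0.0814). It was also absent without ID8 rebastinib replicate 1 or 2, ID8 control replicate 2 or 3, PMJ2R rebastinib replicate 2 or 3, or PMJ2R control replicate 1 or 2 (0.23 to 0.33, adjusted p = 0.0599 to 0.138). The other 8, mt-Cytb and mt-Nd2 among them, did not pass, and neither did mt-Rnr1 (-0.11 ± 0.12) or mt-Rnr2 (-0.03 ± 0.11). Of the 8, mt-Nd3 (-0.86 ± 0.61) needed its ID8 rebastinib libraries to pass the filter, so no difference of response is read from it. Of the 10 tRNAs that passed the filter in both lines, 5 had a smaller response in PMJ2R: mt-Tq (-2.07 ± 0.29), mt-Tc (-1.62 ± 0.40), mt-Tm (-1.42 ± 0.28), mt-Ts1 (-1.24 ± 0.26) and mt-Te (-0.86 ± 0.33). The call of mt-Te (adjusted p = 0.0449) was absent without any ID8 rebastinib replicate, ID8 control replicate 1 or 2, or PMJ2R rebastinib replicate 1 or 2 (-0.93 to -0.72, adjusted p = 0.0581 to 0.148).

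Control cells of the lines differed in rRNA and tRNA more than in coding RNA. PMJ2R against ID8, 82.3% of 15924 genes were called, 39.4% higher and 42.9% lower. Both rRNA genes were higher in PMJ2R, mt-Rnr1 by 1.34 ± 0.07 (log2, adjusted p = 2.14e-13) and mt-Rnr2 by 1.10 ± 0.06 (adjusted p = 3.08e-12). Per 100 coding counts, both rRNA genes together had 7.92, 8.46 and 6.36 in control PMJ2R against 3.91, 3.62 and 3.80 in control ID8. Of the 10 tRNAs that passed the filter in both lines, 8 were higher in PMJ2R, among them mt-Tq (2.31 ± 0.17) and mt-Ta (2.27 ± 0.20), and mt-Te and mt-Ts1 did not pass (adjusted p = 0.0594 and 0.0889). The gene mt-Ti passed it through PMJ2R alone and is given by its counts, 53, 72 and 50 in control PMJ2R against 5, 6 and 9 in control ID8.

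Of the 12 coding genes tested in control cells, 4 were higher in PMJ2R and none was lower. They were mt-Nd2 (0.61 ± 0.08, adjusted p = 1.39e-06), mt-Nd1 (0.51 ± 0.09, adjusted p = 2.16e-05), mt-Atp6 (0.38 ± 0.16, adjusted p = 0.0411) and mt-Cytb (0.28 ± 0.10, adjusted p = 0.0181). The mt-Atp6 call was absent without replicate 1 or 2 of either line (0.30 to 0.38, adjusted p = 0.0716 to 0.158). The mt-Cytb call was absent without any ID8 replicate (0.24 to 0.30, adjusted p = 0.0522 to 0.0590) and without PMJ2R replicate 3 (0.12, adjusted p = 0.0728). With length and GC trends removed 0 coding genes were called higher and 2 were called lower, mt-Co1 and mt-Co2, while 2 rRNA and 9 tRNA genes (mt-Ti included) were called higher, beside 54.3% of all genes higher and 32.3% lower. The gene mt-Co1 stood at -0.16 ± 0.07 and missed the threshold (adjusted p = 0.0518), and it passed without PMJ2R replicate 3 (-0.23, adjusted p = 0.000688), ID8 replicate 1 (-0.20, adjusted p = 0.0443) or ID8 replicate 3 (-0.16, adjusted p = 0.0367).

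The nuclear genes that serve the mitochondrial genome did not move with it as 1 group. Of 22 genes for the maintenance and transcription of mitochondrial DNA, 3 rose and 16 fell in PMJ2R, beside 40.1% of all genes higher and 43.6% lower. Their median log2 fold change there was -0.71 beside -0.05 for all genes. In ID8 5 rose and 11 fell, beside 38.4% and 42.0% of all genes, and 11 of 22 is near that lower share. The ID8 median of these 22 genes was -0.19 beside -0.07. Among them were Polrmt, the mitochondrial RNA polymerase, with 16.7 ± 0.855 TMM-scaled CPM in rebastinib PMJ2R against 37.7 ± 4.34 in control PMJ2R (-1.11 ± 0.08), and Polg, the mitochondrial DNA polymerase, which fell by 1.05 ± 0.05 in PMJ2R and by 0.95 ± 0.08 in ID8. The helicase gene Twnk had 47.6 ± 1.88 CPM in rebastinib PMJ2R against 168 ± 10.7 in control PMJ2R (-1.76 ± 0.05). In ID8 Rrm2b, which supplies deoxynucleotides outside S phase, had 4.43 ± 1.30 CPM with rebastinib against 26.6 ± 0.722 in control (-2.57 ± 0.15). By library totals 0 rose and 19 fell in PMJ2R, beside 22.1% of all genes higher and 61.9% lower. In ID8 1 rose and 14 fell by library totals, and 14 of 22 is near the 57.1% of all genes called lower there (23.9% were higher). With length and GC trends removed 8 rose and 9 fell in ID8, beside 47.5% of all genes higher and 34.6% lower.

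Of 33 genes for processing, modification, translation and decay of mitochondrial RNA, 15 rose and 14 fell in PMJ2R (median -0.04), and 19 rose and 11 fell in ID8 (median 0.39). The PMJ2R counts are near the shares over all genes, 40.1% higher and 43.6% lower, and in ID8 those shares were 38.4% and 42.0%. The translation initiation factor gene Mtif2 fell in PMJ2R, with 7.02 ± 0.772 CPM against 37.5 ± 2.35 in control (-2.36 ± 0.10), and in ID8, with 5.81 ± 0.395 CPM against 32.6 ± 1.51 in control (-2.48 ± 0.10). Fastkd1 and Gtpbp3, for mitochondrial RNA stability and tRNA modification, fell in both lines, while Tufm, the mitochondrial elongation factor, rose in both (0.76 ± 0.05 in PMJ2R and 0.98 ± 0.08 in ID8). Trmt10c, a subunit of the enzyme that cuts tRNA 5′ ends, rose in PMJ2R (1.17 ± 0.07). By library totals the counts were 6 higher and 23 lower in PMJ2R, again near the 22.1% and 61.9% of all genes, and 10 higher and 14 lower in ID8, beside 23.9% and 57.1%.

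Of the nuclear regulators, 6 rose and 4 fell of 10 tested in PMJ2R and 7 rose and 3 fell of 11 in ID8, beside 40.1% of all genes higher and 43.6% lower in PMJ2R and 38.4% and 42.0% in ID8. By library totals 3 rose and 6 fell in PMJ2R, near the 22.1% and 61.9% of all genes, and 3 rose and 4 fell in ID8, beside 23.9% and 57.1%. Nrf1 and Gabpb1, which drive promoters of nuclear respiratory genes, rose in PMJ2R (0.84 ± 0.06 and 0.90 ± 0.06) and in ID8 (0.50 ± 0.07 and 0.52 ± 0.08). By library totals neither passed in ID8 (0.07, adjusted p = 0.380, for Nrf1 and 0.08, adjusted p = 0.372, for Gabpb1). The coactivator gene Ppargc1b had 4.49 ± 0.916 CPM in rebastinib PMJ2R against 9.40 ± 0.910 in control PMJ2R, and 14.2 ± 1.15 in rebastinib ID8 against 3.54 ± 0.302 in control ID8, with a difference of response of -3.08 ± 0.20 (adjusted p = 7.86e-12). Its relative Ppargc1a rose in ID8 (1.42 ± 0.13), with 23.3 ± 4.19 CPM against 8.80 ± 0.982 in control.

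The nuclear-encoded subunits of the same respiratory complexes were the list closest to the coding genes in direction. In PMJ2R 74 of 74 tested rose, beside 40.1% of all genes, with a median log2 fold change of 0.85 beside -0.05 for all genes. In ID8 74 of 75 rose and 1 fell, beside 38.4% of all genes higher and 42.0% lower, with a median of 1.30 beside -0.07. By library totals 56 were called higher and 5 lower in PMJ2R, beside 22.1% and 61.9% of all genes, and 72 higher and 1 lower in ID8, beside 23.9% and 57.1%. An example is Cox4i1 of complex IV, with 639 ± 16.5 CPM in rebastinib PMJ2R against 275 ± 5.22 in control PMJ2R and 746 ± 113 in rebastinib ID8 against 239 ± 14.7 in control ID8. Another is Atp5b, the catalytic subunit gene of ATP synthase, with 2128 ± 51.9 CPM in rebastinib PMJ2R against 1010 ± 38.5 in control PMJ2R. Between the lines, 61 of 75 of these nuclear genes had a smaller response in PMJ2R and 1 a larger. Over all genes those shares were 30.6% and 21.8%. Their median difference was -0.48 beside -0.10 over all genes. Smaller responses numbered 67 by library totals and 44 with RLE factors (median -0.35 beside 0.02). With length and GC trends removed they numbered 49 (median -0.38 beside -0.12). Among the mitochondrially encoded coding genes 3 of 13 were smaller and 2 larger, which is not above the shares over all genes. The 13 include mt-Nd3, which had too few counts to be tested in PMJ2R.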

How the data were processed

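The deposited values were raw counts per Ensembl gene, as whole numbers in 1 table of 55421 identifiers. STAR 2.6.1c, featureCounts, FastQC and DESeq2 are listed per the submitters' processing notes, with build GRCm38; annotation, strand and multi-match settings are not stated there. Groups came from the sample titles. Symbols, positions, lengths and transcript sequences came from GENCODE vM21, and 181 identifiers with 0.00261% of counts had no entry there. Library totals ran from 19025504 to 27070556 counts, and limits for a count of 0 cover counting error only.

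The members, lists, tests and the rule for named genes were chosen with earlier results of these data known. By that rule all coding and rRNA genes are named, tRNA genes that passed the expression filter in a comparison, up to 6 list members with the smallest p, and nuclear copies with at least 1000 counts. Any other copy was named after its values were seen. Tests used edgeR 4.0.16 in R 4.3.3 (TMM, default expression filter, robust quasi-likelihood test, Benjamini-Hochberg adjustment over all genes tested, threshold 0.05). Comparisons were rebastinib against control in PMJ2R and in ID8, control cells of PMJ2R against ID8, and the difference of response over 12 libraries. A second fit took the mitochondrial coding counts as library size. The SE of a log2 fold change is its size over the square root of F. Lists are given by counts and medians, with no set test. Copies were found with BLAST 2.17.0 among annotated transcripts (at least 100 aligned bases and 85% identity). The fits were tested on simulated counts. Replicate pairs differed by 1.67 to 21.4 in chi-square per degree of freedom, so all were kept. Alternatives were RLE factors, library totals, scaling without mitochondrial and rRNA-overlapping genes, DESeq2 1.42.0, limma-voom (limma 3.58.1), a stricter filter (mean CPM of 5 or more), none at all, a replicate block, removal of length and GC trends, and leaving out each library.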

Additional observations from a re-analysis of the deposited data

Results flagged for a closer look

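The response to rebastinib differed between the lines for 10 members by the interaction contrast over all 12 libraries (edgeR, adjusted p under 0.05). The members tested in both lines were 12 coding, 2 rRNA and 10 tRNA genes. The share called is therefore not above the 52.4% of all tested genes. Values are the log2 response in PMJ2R minus that in ID8. Among the coding genes the difference was -0.56 for mt-Nd4 (1.12 in PMJ2R and 1.63 in ID8), -0.56 for mt-Nd1 (1.07 and 1.57), -0.72 for mt-Nd6 (0.81 and 1.48), 0.36 for mt-Co1 (1.31 and 0.90) and 0.33 for mt-Nd5 (0.98 and 0.59). Among the tRNA genes it was -2.07 for mt-Tq (-0.12 in PMJ2R and 1.90 in ID8), -1.62 for mt-Tc (0.31 and 1.88), -1.42 for mt-Tm (0.12 and 1.49), -1.24 for mt-Ts1 (0.89 and 2.07) and -0.86 for mt-Te (0.43 and 1.23). The calls of mt-Nd5 and mt-Te were lost when any of several single libraries was left out. The gene mt-Ti had a fitted difference of -2.02, but it passed the expression filter through PMJ2R alone, with 20 to 72 counts per library there and 5 to 22 in ID8, so no difference of response is read from it. Groups of 3 libraries are too small for a test of single libraries that stand apart.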

How the results depend on the processing

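The rebastinib responses of the coding and rRNA genes within each line had the same direction and calls under RLE factors, DESeq2, limma-voom and scaling without mitochondrial and rRNA-overlapping genes, except that mt-Nd4l was also called in ID8 by limma-voom (0.94, adjusted p = 0.0499). Where a value below departs from the report, the cause was not tested. The number of counts limits the copied coding genes and most heavy-strand tRNA genes.

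Class ratios of rebastinib over control on the TMM scale were 2.10, 2.31 and 1.35 in PMJ2R and 2.20, 2.37 and 2.26 in ID8 for coding, rRNA and tRNA genes; the PMJ2R tRNA ratio of 0.956 by library totals became 1.01 without rRNA-overlapping genes and 0.899 to 1.005 with 1 library left out. By library totals 4 tRNA genes were called lower in PMJ2R and 1 coding gene had a larger response there; mt-Tm was at -0.43, mt-Tw at -0.29, mt-Ta at -0.33, mt-Tc at -0.25, mt-Ty at -0.29 and mt-Te at -0.13.

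With length and GC trends removed, tRNA calls were 0 higher and 8 lower in PMJ2R and 3 higher and 3 lower in ID8, 1 coding gene had a larger response in PMJ2R, and in control cells 0 coding genes were higher and 2 lower. In PMJ2R mt-Tm was then at -0.84, mt-Tw at -0.84, mt-Ta at -0.995, mt-Tc at -0.87, mt-Ty at -0.94, mt-Ts1 at -0.27, mt-Nd6 at -0.058, mt-Te at -0.78 and mt-Tp at -0.034. In ID8 mt-Tw was at -0.51, mt-Ta at -0.59, mt-Ty at -0.63, mt-Tt at -0.60 and mt-Tp at -0.24. In control cells mt-Ts1 was at -0.23, mt-Atp8 at -0.51, mt-Atp6 at -0.062, mt-Co3 at -0.13, mt-Nd4 at -0.11, mt-Nd6 at -0.33 and mt-Nd4l at -0.21, and the response difference of mt-Tp was 0.17.

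With a mean of at least 5 CPM, which leaves fewer genes, 7 coding genes were called higher in PMJ2R, 3 tRNA genes in ID8 and 5 tRNA genes in control cells, and 3 tRNA genes had a smaller response in PMJ2R; the response differences of mt-Rnr2 and mt-Tp were 0.049 and 0.033. With no filter 2 tRNA genes were lower in PMJ2R and mt-Tm was at -0.083. RLE factors, DESeq2, limma-voom and no filter each called 1 coding gene, mt-Co1, lower in control PMJ2R. RLE factors and DESeq2 put mt-Tt in PMJ2R at 0.022 and 0.027, and the response differences at 0.0098 and 0.0097 for mt-Rnr1, 0.0914 under both for mt-Rnr2, and 0.0769 and 0.0772 for mt-Tp.

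The labels do not say whether replicate numbers pair the libraries. In deviations from their group means, same-numbered rebastinib and control libraries correlated at 0.0276, 0.00524 and 0.0662 in PMJ2R and -0.0738, -0.0232 and -0.167 in ID8. With 3 libraries per group these values cannot exclude a pairing. With the replicate block, 4 tRNA genes were called higher in PMJ2R and 2 coding genes higher relative to the coding total there.

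Leaving out 1 library gave these ranges of calls. PMJ2R tRNA genes were 2 to 5 higher and 0 to 1 lower. Coding genes with a larger response in PMJ2R were 1 to 2. Coding genes in control cells were 2 to 4 higher and 0 to 1 lower. Relative to the coding total, PMJ2R had 0 to 3 coding genes higher, 0 to 1 lower and 0 to 1 rRNA genes lower, and ID8 had 0 to 4 tRNA genes lower. In PMJ2R the log2 fold change ranged over -0.23 to 0.0049 for mt-Tq, -0.053 to 0.23 for mt-Tm and -0.28 to 0.12 for mt-Tt. Response differences ranged over -0.22 to 0.0025 for mt-Rnr1, -0.11 to 0.035 for mt-Rnr2 and -0.15 to 0.013 for mt-Tp, and differences in control cells over -0.025 to 0.13 for mt-Nd4 and -0.086 to 0.70 for mt-Nd4l.

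For the gene lists by library totals, 0 maintenance genes rose in PMJ2R and 1 in ID8, 6 RNA processing genes rose and 23 fell in PMJ2R and 10 rose in ID8, 3 regulators rose in each line, and 5 respiratory genes fell in PMJ2R. With length and GC trends removed, 8 maintenance genes rose and 0 regulators fell in ID8, and 3 regulators and 2 respiratory genes had a larger response in PMJ2R, as had 2 maintenance and 2 respiratory genes with RLE factors.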
